A study of Homo sapiens with 36 samples.

Results

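The genes described here are the protein-coding genes of human chromosome 19 whose symbol is ZNF followed by a number. They were picked by name, chromosome and gene type from 9 deposited lists of enriched windows, so a gene counts here only if at least 1 list holds a window in it. The 9 lists together held 3874 windows in 149 such genes, of 757766 windows in 10122 protein-coding genes and 788098 windows in all. The 3874 entries were 3301 distinct windows, because a window can stand in more than 1 list. RefSeq places 246 protein-coding genes of this kind on chromosome 19, and 149 of them (60.6%) had a window under their own name.

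The series is an eCLIP study in HEK293T cells, a readily transfected human embryonic kidney line, and its title concerns proteins that change poly(A) site choice when tethered to RNA. In eCLIP, ultraviolet light joins protein to RNA, the protein is immunoprecipitated (IP), and the RNA under it is sequenced beside an input sample that skips the enrichment. IP and input libraries were made for CPSF5, CPSF6, RNPS1, MBNL2, EIF4B, RBM10, RBM22, GRB2 and LGALS3, 2 replicates each, 36 libraries in 18 groups, with no treatment and no change of genotype named. The antibody was against either the protein itself or a V5 tag, and the labels used here do not say which protein was tagged, so it is not known here which lists come from a tagged protein. A deposited value is the read count summed over the 2 replicates of a window of at most 100 nucleotides, with the lower and the higher log2 enrichment of IP over input among the replicates.

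Most of these genes encode C2H2 zinc finger proteins, and many carry a KRAB domain, which recruits the TRIM28 repressor complex. They arose by repeated tandem duplication and lie in clusters along chromosome 19, and many of their proteins silence transposable elements. The fingers of such a gene are usually encoded by 1 long last coding exon made of repeated segments, followed by the 3' UTR. Near-identical copies are therefore common, and how reads that fit several copies were handled is not given in the sources used here, so counts in close paralogs such as ZNF417 and ZNF587 are uncertain.

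Some transcript starts opened an enriched EIF4B window, and the sequences below show the bases around such starts. These windows covered the first 44 to 99 nucleotides, so the enrichment is not placed within the bases printed. The 10 bases before a start are not part of the annotated transcript. Each is 10 bases before and 20 bases after the RefSeq start (GRCh38.p14, transcribed strand, read 5' to 3'), and each start opened an EIF4B window. Capitals mark ACTTCCGG, the reverse complement of CCGGAAGT, which is the core recognised by ETS-family transcription factors, or CTCGCTG. Both words were chosen after these sequences had been seen. Of the 38 starts that opened an EIF4B window, only those holding either word are printed.
ZNF787: cgggaaggtcACTTCCGGcctgggcgcccg
ZNF470: ggacacgcccACTTCCGGaaaggacccaaa
ZNF551: gcgacgggccggaACTTCCGGcgtcctcct
ZNF550: acacaggggcgggACTTCCGGcctcgctgg
ZNF274: agcatcacccattccagcACTTCCGGcctg
ZNF430: cggggcctttgtccCTCGCTGtggcctgag
ZNF724: atttggcggggcctttgtctCTCGCTGcag
ZNF100: gtttggcggggtctttgtctCTCGCTGtag
In ZNF787 (chr19:56121276-56121305, minus strand) and ZNF470 (chr19:56567458-56567487, plus strand) the ETS-type word began at base 1 of the transcript. In ZNF551 (chr19:57681967-57681996, plus strand) and ZNF550 (chr19:57559844-57559873, minus strand) it began at base 4, and in ZNF274 (chr19:58183051-58183080, plus strand) at base 9. ZNF550 also held CTCGCTG, starting at base 13 and sharing no base with the other word. ZNF430 (chr19:21020647-21020676, plus strand), ZNF724 (chr19:23250375-23250404, minus strand) and ZNF100 (chr19:21767560-21767589, minus strand) carried CTCGCTG after a similar run of bases.

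Over the whole RefSeq stretch from 250 bases before to 50 bases after a start, on both strands, ACTTCCGG or CCGGAAGT was present in 38 of 177 stretches of the chromosome 19 ZNF genes (21.5%). The share was 12.2% for ZNF genes of other chromosomes, 5.21% for other protein-coding genes and 4.14% for all stretches in the table. CTCGCTG or its complement CAGCGAG was present in 15 of 177 stretches (8.47%), against 9.72% for ZNF genes of other chromosomes and 5.59% for other protein-coding genes. Of the 149 genes, 136 had an entry in that table. The 177 stretches include the starts from which the words were chosen, so their shares are not independent of that choice. These are matches of letters and do not show that a factor binds.

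A chromosome 19 ZNF gene with any window had a median of 14 windows and stood in a median of 3 lists, against 5 lists for other protein-coding genes. The 21 genes with the most windows already held at least as many as all the others together, and 8 genes had 1 window each. ZNF507 had the most, 149 windows in 6 lists. ZNF146, which encodes a protein made almost only of zinc fingers with no KRAB domain, stood in 8 lists, and ZNF460, ZNF431, ZNF444, ZNF714 and ZNF317 stood in 7. Of the distinct windows, 85.6% stood in 1 list only, against 77.7% of the windows of other protein-coding genes. The 13 windows that reached 4 lists lay in ZNF428, ZNF507, ZNF317, ZNF146, ZNF460, ZNF791, ZNF579 and ZNF580.

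How many of the 149 genes a list reached differed widely between proteins. CPSF6 windows were found in 117 genes (78.5%, exact 95% interval 71.1 to 84.8), where 86.6% of all protein-coding genes in any list had one. RNPS1 windows were found in 110 genes (73.8%), against 90.0% of all protein-coding genes. EIF4B reached 84 genes (56.4%), against 93.4%, and GRB2 reached 71 genes (47.7%), against 49.1%. MBNL2 reached 34 genes (22.8%, against 66.5%), CPSF5 32 genes (21.5%, against 65.4%), RBM10 26 genes (17.4%, against 47.3%) and RBM22 11 genes (7.38%, against 23.7%). LGALS3, a galectin, had no window in these genes, where 3.28% of all protein-coding genes had one. Its list is short, and 0 of its 955 protein-coding windows allows a share of windows in these genes of up to 0.314% by the limit of 3 counts, while in the 8 other lists that share ran from 0.170% for RBM10 to 0.639% for CPSF6. The exact 95% interval of the GRB2 share, 39.4 to 56.0%, held the background, while the background lay above the interval for each of the 7 other lists with a window. Intervals and floors cover counting error only, since windows of 1 gene are not replicates and genes of 1 cluster are not independent. The deposited counts do not show whether copies of 1 molecule were counted once.

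**Figure D1:**
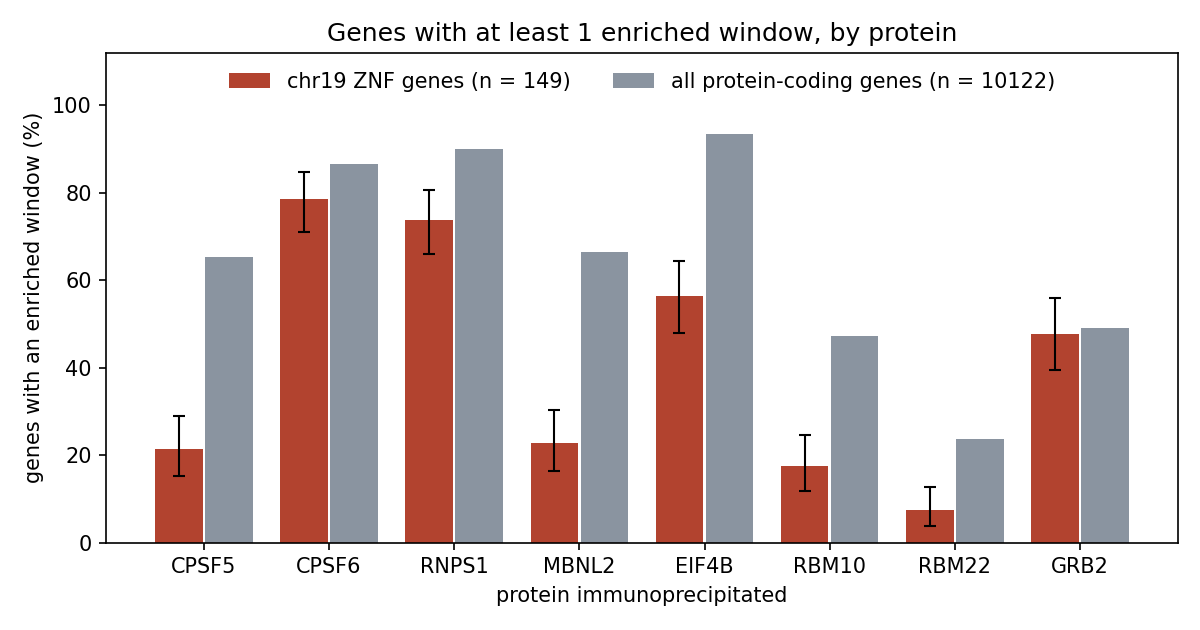
Percent of genes with at least 1 enriched window (y axis) for 8 proteins (x axis), chromosome 19 ZNF genes in red on the left of each pair and all protein-coding genes in any list in grey on the right, with exact 95% binomial intervals on the red bars. The pair for GRB2 (47.7% and 49.1%) is close, while the pairs for CPSF5 (21.5% and 65.4%) and MBNL2 (22.8% and 66.5%) are far apart.

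Reads behind these windows were often few. The median IP read count per window was 15 for RNPS1 windows of chromosome 19 ZNF genes, against 28 in non-ZNF genes of other chromosomes, and 21 for CPSF6, against 31. The corresponding median input count was 1 for RNPS1, against 2, and 2 for CPSF6, against 4. A gene without a window may be unbound, or may yield too few reads to call, and the lists do not tell these apart. The part of the read counts in the results was not tested. With a minimum of 20 IP reads, RNPS1 windows remained in 40.3% of the chromosome 19 ZNF genes, against 79.3% of all protein-coding genes, and CPSF6 windows in 51.0%, against 78.8%. Read counts are deposited only as sums over both replicates, and the log2 enrichment only as the lower and the higher value with no replicate named, so no test between genes over replicates was made.

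The median lower-replicate log2 enrichment was 3.05 for CPSF5 windows in these genes, against 2.84 in non-ZNF genes of other chromosomes. For CPSF6 it was 2.69 against 2.51, for RNPS1 3.13 against 2.96, and for GRB2 3.58 against 3.38. The medians were 2.36 against 2.41 for MBNL2, 2.75 against 2.85 for EIF4B, 2.94 against 2.79 for RBM10 and 2.44 against 2.11 for RBM22. These differences were not tested. For scale, the replicates of a single ZNF window differed by a median of 0.67 for CPSF5 to 1.20 for RBM10, which is the spread of 1 window and not the error of a median. Medians were also taken among windows with a largest q-value of at most 0.05. They were 4.17 against 4.01 for GRB2 (981 ZNF windows) and 4.08 against 3.50 for RBM10 (10 ZNF windows). CPSF5 had 3.56 against 3.37, CPSF6 3.19 against 2.97, RNPS1 3.38 against 3.29 and RBM22 2.71 against 2.56. EIF4B, at 3.14 against 3.29, and MBNL2, at 2.67 against 2.80, were again lower in the ZNF genes.

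CPSF5 and CPSF6 both belong to cleavage factor Im, which binds UGUA elements upstream of poly(A) sites and takes part in choosing between sites. CPSF5 windows of chromosome 19 ZNF genes lay in 3' UTRs in 103 of 114 cases (90.4%, interval 83.4 to 95.1), against 81.3% in non-ZNF genes of other chromosomes. The gene with the most was ZNF805, with 27 windows, 937 IP and 30 input reads, and these made up 23.7% of the 114. Its strongest window (chr19:57257379-57257477, hg38, plus strand, 3' UTR) had 45 IP and 0 input reads and enrichments on the log2 scale of 5.94 and 5.95 in its weaker and its stronger replicate. Pairs of enrichments below are in this order. ZNF460 followed with 11 windows, ZNF507 with 9, and ZNF146 and ZNF714 with 8 each. ZNF614 and ZNF776 had the next strongest windows, at 5.32 and 4.68 in the lower replicate.

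The CPSF5 windows of these genes lay at very different distances from the annotated gene end. Of 102 3' UTR windows with a RefSeq end, 14 (13.7%) were within 200 nucleotides of it, against 14.8% in other protein-coding genes. The median distance was 2873.5 nucleotides, against 1143.75 nucleotides. ZNF805 set much of this, since its 27 windows lay 3913 to 7381 nucleotides before the end, and the 7 of ZNF264 lay 5530.5 to 8918.5 nucleotides before it. In ZNF460 the 11 windows were spread from 48 to 1113 nucleotides before the end. Which poly(A) site these cells use was not measured in the lists.

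Some of the same 3' UTRs also held GRB2 windows. Of the 114 CPSF5 windows, 34 (29.8%, interval 21.6 to 39.1) were also GRB2 windows, against 2.85% in other protein-coding genes. ZNF805 accounted for 23 of the 34, ZNF460 for 6 and ZNF264 for 3. Without ZNF805 the share was 11 of 87 (12.6%, interval 6.48 to 21.5), so 1 gene decides its size. In ZNF805 the 29 GRB2 windows spanned chr19:57255100-57261340 and the 27 CPSF5 windows chr19:57255298-57258864. The strongest ZNF805 3' UTR window for GRB2 had a lower-replicate log2 enrichment of 5.87.

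CPSF6 windows of the chromosome 19 ZNF genes followed the body of the transcript. Coding sequence held 577 of 944 (61.1%), against 53.3% in non-ZNF genes of other chromosomes. The 3' UTRs held 166 (17.6%, against 7.40%) and introns 149 (15.8%, against 32.7%). ZNF genes of other chromosomes lay between, at 57.2% in coding sequence, 13.6% in 3' UTRs and 23.5% in introns. In the chromosome 19 ZNF genes the median log2 enrichment of the weaker replicate was 2.66 in coding sequence and 2.64 in 3' UTRs. The strongest window lay in the 3' UTR of ZNF234 (chr19:44158718-44158817), with 110 IP and 0 input reads and enrichments of 7.22 and 7.37. After ZNF234 and an intronic window of ZNF780B came ZNF791, whose window (chr19:12633735-12633834, 3' UTR) had 28 IP and 0 input reads and enrichments of 5.53 and 5.57. ZNF714 had 32 CPSF6 windows, ZNF317 and ZNF507 30 each, and ZNF146 28.

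ZNF780B stood apart from the other genes in the CPSF6 list, with 65 windows of which 51 were intronic. A single intron held 50 of them, between chr19:40037425 and chr19:40046874 on the minus strand, with 1803 IP and 115 input reads. The lower-replicate enrichment there ran from 1.86 to 6.18 with a median of 3.71. The same intron held 24 GRB2 windows (chr19:40043990-40046675) and 12 RBM22 windows (chr19:40037524-40043989). All 12 RBM22 windows were also CPSF6 windows, and 3 of the 24 GRB2 windows were. On this minus-strand gene the GRB2 windows lay toward the upstream end of the listed stretch and the RBM22 windows downstream of them. Without ZNF780B, chromosome 19 ZNF genes held 0.595% of protein-coding CPSF6 windows, against 0.639% with it.

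RNPS1, a splicing activator that travels with the exon junction complex, also marked mainly coding sequence. In chromosome 19 ZNF genes 373 of 523 RNPS1 windows (71.3%) were coding, against 72.4% in non-ZNF genes of other chromosomes. The 5' UTR share was 14.5% (76 windows, interval 11.6 to 17.8), against 4.80%, and the intron share 4.97%, against 15.1%. ZNF genes of other chromosomes lay between, at 7.12% in 5' UTRs and 12.6% in introns. ZNF507 had 30 RNPS1 windows, ZNF317 24, ZNF146 23 and ZNF714 20. The strongest was a coding window of ZNF649 (chr19:51891799-51891897, minus strand), with 37 IP and 0 input reads and enrichments of 5.38 and 5.77. Coding windows of ZNF431 and ZNF714 followed, both at 5.20 in the lower replicate.

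CPSF6 outnumbered RNPS1 in these genes. There were 944 CPSF6 and 523 RNPS1 windows, a ratio of 1.80, against 1.49 in ZNF genes of other chromosomes and 0.999 in other protein-coding genes. Of the 128 chromosome 19 ZNF genes with a window for either, CPSF6 had more in 83 (64.8%), RNPS1 more in 28, and 17 had equal numbers. In other protein-coding genes CPSF6 had more in 33.5%, and in ZNF genes of other chromosomes in 65.9%. The ratio was also higher in the chromosome 19 ZNF genes in coding sequence, 3' UTRs and introns. It was 1.55 in coding sequence, against 0.742 in other protein-coding genes, 4.15 in 3' UTRs, against 1.72, and 5.73 in introns, against 2.08. The 5' UTRs went the other way, with 46 CPSF6 and 76 RNPS1 windows in the chromosome 19 ZNF genes. Other protein-coding genes had 5629 CPSF6 and 7056 RNPS1 windows in 5' UTRs. ZNF genes of other chromosomes had ratios of 1.16 in coding sequence and 4.07 in 3' UTRs. The intron ratio leans on ZNF780B and ZNF155, with 51 and 24 of the 149 intronic CPSF6 windows. ZNF155 had no RNPS1 window. Its listed windows (chr19:43968285-43975425) lay outside the RefSeq span of ZNF155 and inside that of ZNF221, so their assignment is uncertain.

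**Figure D2:**
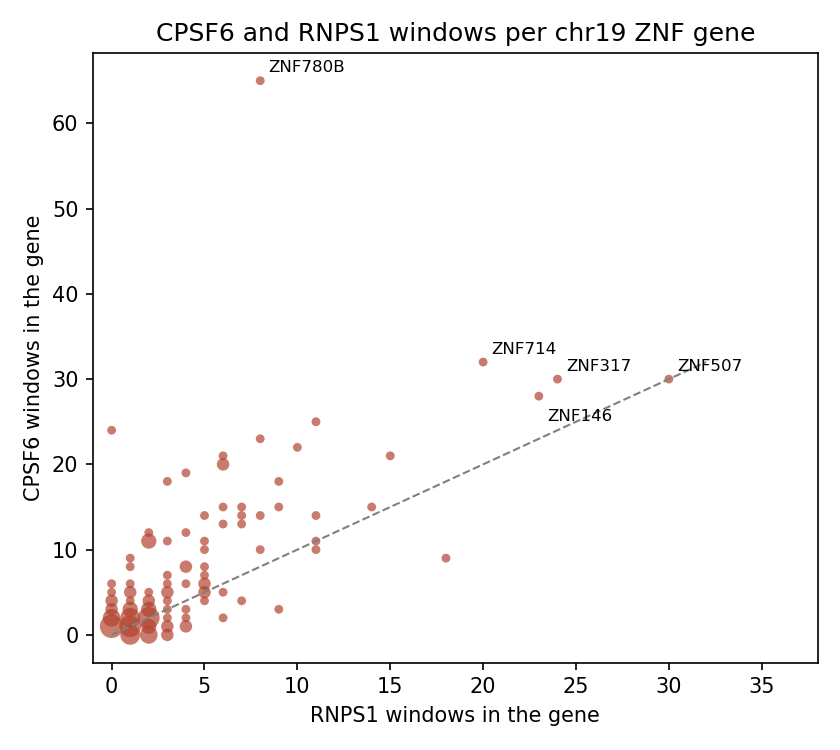
CPSF6 windows (y axis) against RNPS1 windows (x axis) in each of the 128 chromosome 19 ZNF genes with either. The dashed line marks equal numbers and the area of a point grows with the number of genes at that place. Of the genes, 83 lie above the line and 28 below it, ZNF780B has 65 CPSF6 and 8 RNPS1 windows, and ZNF507 lies on the line at 30 each.

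The shared windows were 301 for CPSF6 and RNPS1, which was 31.9% of the CPSF6 windows of chromosome 19 ZNF genes, against 57.2% in other protein-coding genes, and 57.6% of their RNPS1 windows, against 57.1%. The difference between the ZNF genes and other genes was not tested, since windows of 1 gene are not replicates.

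Many coding windows of the chromosome 19 ZNF genes lay in coding segments called long by the rule given here. Segments were called long when a listed window stood at place 6 or later, counted in windows of at most 100 nucleotides along the genome. By this rule 91 of 205 coding segments were long, in 90 genes. Length was thus read from the listed windows and not from annotation. A window at place 6 or later is in a long segment by definition, so the shares below do not measure exon length. These counts leave out coding windows at a start or stop codon. Of the other CPSF6 coding windows of these genes, 464 of 536 (86.6%, interval 83.4 to 89.3) were in long segments, against 19.3% in non-ZNF genes of other chromosomes. RNPS1 had 72.0%, against 11.9%, and MBNL2 83.6%, against 20.7%. EIF4B had 70.7%, against 22.5%, and RBM22 had 12 of 12, against 70.0%. ZNF genes of other chromosomes were also high, at 71.6% for CPSF6 and 51.1% for RNPS1. The long finger exon described above is the usual gene structure, and the lists do not say which segment encodes fingers.

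Single genes showed different mixtures along such a segment. In ZNF226 a segment at chr19:44175596-44177574 held 18 CPSF6 and 4 RNPS1 windows. In ZNF112 the segment reached place 25 and held 10 CPSF6 windows and 1 RNPS1 window. In ZNF574 (chr19:42078806-42081197) it also reached place 25, but held 16 MBNL2 windows, 4 CPSF6 windows and 3 RNPS1 windows. ZNF507 had 17 of each of CPSF6 and RNPS1 in its segment.

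**Figure D3:**
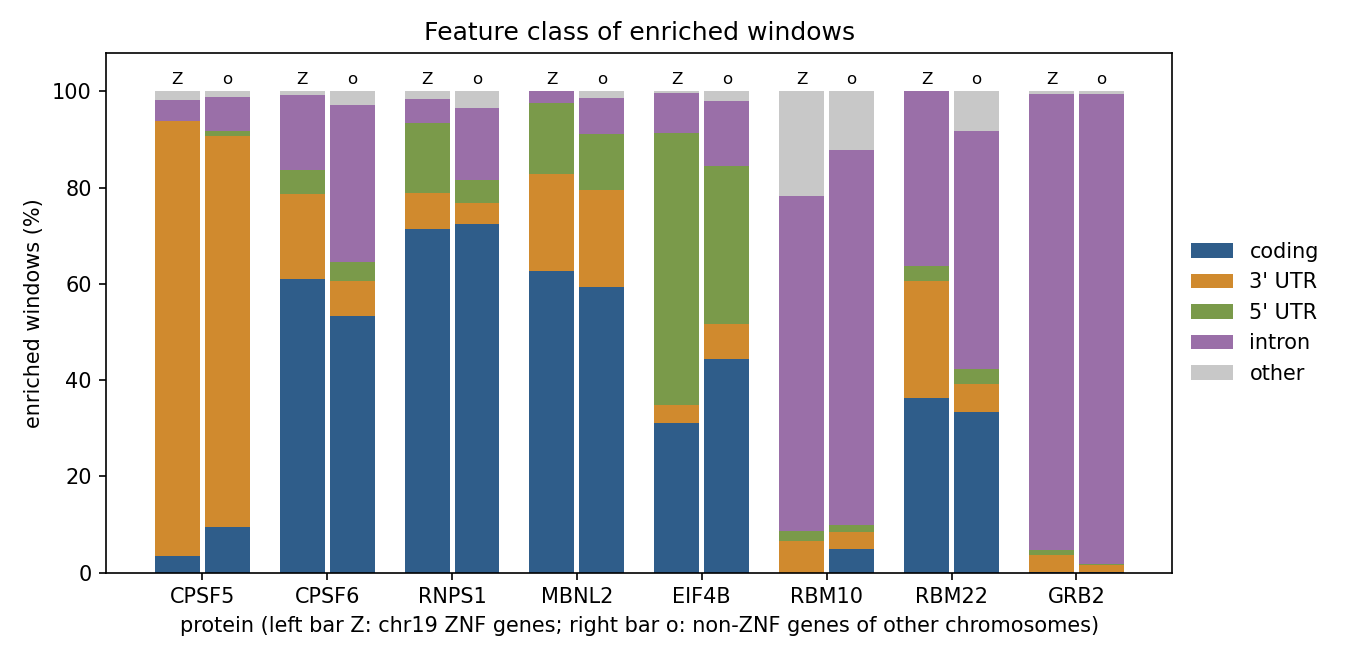
Percent of enriched windows (y axis) in coding sequence, 3' UTR, 5' UTR, intron and other exon classes for 8 proteins (x axis), for chromosome 19 ZNF genes (left bar, Z) and non-ZNF genes of other chromosomes (right bar, o). CPSF5 is mostly 3' UTR in both, EIF4B has the larger 5' UTR share in the ZNF genes (56.6%) and GRB2 is nearly all intron.

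MBNL2, a muscleblind protein that acts in alternative splicing and polyadenylation, was found in few of the genes. Its 123 windows lay in 34 genes, and the 5 genes with the most held 48.8% of them. They were ZNF574 with 18, ZNF317 with 12, ZNF358 with 11, ZNF324 with 10 and ZNF580 with 9. Coding sequence held 62.6%, against 59.3% in non-ZNF genes of other chromosomes, and 3' UTRs 20.3%, against 20.2%. The strongest window was in the 3' UTR of ZNF580 (chr19:55643116-55643204), with 20 IP and 0 input reads and enrichments of 4.48 and 4.90. In ZNF358 the 11 coding windows held 1035 IP and 72 input reads.

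The genes MBNL2 reached had a higher median GC content than the rest. The listed coding windows of the 30 MBNL2 genes with such windows had a median GC content of 50.3%, against 43.0% for the 84 without MBNL2, and the ranges overlapped, at 37.5 to 76.8% and 34.3 to 71.9%. Over the chromosome 19 ZNF genes the median was 44.3% (114 genes), against 50.2% in other protein-coding genes. The MBNL2 coding windows themselves had a median GC content of 65.3% in these genes, against 55.4% in other protein-coding genes. EIF4B coding windows were also high, at 63.1% against 57.4%. Of the 77 MBNL2 coding windows, ZNF574 held 17, ZNF358 11 and ZNF324 8. The listed coding windows of ZNF574, ZNF358 and ZNF324 had a mean GC content of 62.9%, 68.5% and 64.4%. MBNL2 windows add to the coding windows measured here, so the first of these comparisons is not independent of the list.

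EIF4B, which stimulates the helicase eIF4A during translation initiation, lay near the front of the transcripts. Its 302 windows in chromosome 19 ZNF genes were 5' UTR in 171 cases (56.6%, interval 50.8 to 62.3), against 32.8% in non-ZNF genes of other chromosomes, and coding in 94 (31.1%, against 44.4%). In all, 81 of the 84 genes had a 5' UTR window. The 5' UTR windows of the ZNF genes had a median of 37 IP reads and a lower-replicate log2 enrichment of 3.16, against 102 reads and 3.69 in other protein-coding genes. Of 159 windows with a promoter entry, 38 (23.9%, interval 17.5 to 31.3) opened at the RefSeq start, against 25.3% in other protein-coding genes.

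The transcript starts printed above belong to this set. The ZNF787 start window had 216 IP and 7 input reads and enrichments of 3.95 and 4.21, and that of ZNF430 had 51 IP and 0 input reads and enrichments of 5.24 and 5.52. ZNF550 had 30 IP and 0 input reads at its start, with 4.61 and 4.68. The replicates of ZNF470 were far apart, at 1.93 and 4.04.

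The 5 genes with the most EIF4B windows held 29.1% of them. ZNF444 had 22 windows, ZNF787 20, ZNF146 19, ZNF358 15 and ZNF460 12. Reads ranked the genes differently. The 3 windows in the 5' UTR of ZNF428 held 1640 IP reads, against 1556 in the 22 windows of ZNF444. The strongest EIF4B window lay in the 5' UTR of ZNF146 (chr19:36235854-36235951), with 96 IP and 3 input reads and enrichments of 5.84 and 5.85. ZNF71 had 62 IP and 0 input reads at chr19:56595302-56595364, with 5.58 and 5.74. ZNF428 had 383 IP and 9 input reads in its strongest window, with 5.46 and 6.34. The 37 windows shared by EIF4B and MBNL2 were 12.3% of the EIF4B windows of the ZNF genes, against 25.9% in other protein-coding genes, and 30.1% of their MBNL2 windows, against 40.5%. The ZNF shares depended on the filter, at 5.68% of EIF4B and 15.4% of MBNL2 windows with a largest q-value of 0.05, and at 21.5% and 42.3% where touching windows count as shared.

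RBM10, a splicing regulator that acts near splice sites, had 46 windows in 26 genes, 15 of them with 1 window. Windows adjacent to a 3' splice site made up 21 of the 46 (45.7%) in 19 genes, against 32.7% in other protein-coding genes. Windows the authors annotated as other messenger RNA exon made up 10 (21.7%), against 10.4%. No window was coding (interval 0 to 7.71%), against 4.84% in non-ZNF genes of other chromosomes, a share inside that interval. These differences were not tested, and 10 of the 46 windows had a largest q-value of at most 0.05. The strongest was next to a 3' splice site of ZNF875 (chr19:37347677-37347776), with 90 IP reads and 1 input read and enrichments of 5.17 and 5.74. ZNF266 and ZNF787 followed at 5.05 and 4.82 in the lower replicate, although the higher replicate of ZNF787 reached 6.31. ZNF444 had 5 RBM10 windows, ZNF274 and ZNF302 4 each, and ZNF264 and ZNF317 3 each.

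RBM22, a core component of the spliceosome, had 33 windows in 11 genes. They were 12 coding, 12 intronic, 8 in 3' UTRs and 1 in a 5' UTR, and all 12 intronic ones were those of ZNF780B described above. CPSF6 shared 32 of the 33 (97.0%, interval 84.2 to 99.9), against 68.1% of RBM22 windows in other protein-coding genes, and 20 of the 21 outside ZNF780B. That difference was not tested. ZNF460 had 6, ZNF714 5, and ZNF507 and ZNF587 2 each. The strongest, in the ZNF780B intron (chr19:40040508-40040607), had 29 IP and 0 input reads and enrichments of 5.18 and 5.39.

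GRB2, a signalling adaptor with SH2 and SH3 domains, gave the largest of the 9 lists and 1789 of the 3874 windows here. Introns held 94.6%, against 97.7% in non-ZNF genes of other chromosomes, and 3' UTRs 3.41%, against 1.41%. ZNF genes of other chromosomes had similar shares, at 94.1% in introns and 3.67% in 3' UTRs. The 61 windows in 3' UTRs lay in 7 genes, 29 of them in ZNF805. The 1789 windows lay in 71 genes and were concentrated within them. The median per gene was 0.552 windows per kilobase, against 0.377 in the other protein-coding genes with GRB2 windows and 0.601 in ZNF genes of other chromosomes. ZNF551, with 36 windows in 8.672 kilobases, had the highest density at 4.15 per kilobase. The median length of these genes was 26.5 kilobases, against 65.9 kilobases in the other protein-coding genes with GRB2 windows, and its part in the densities was not tested.

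ZNF100 had 115 GRB2 windows, ZNF444 74, ZNF431 73, ZNF507 71 and ZNF430 69. These 5 genes held 22.5% of the GRB2 windows. The strongest was an intronic window of ZNF714 (chr19:21111308-21111407), with 249 IP and 0 input reads and enrichments of 7.66 and 7.76. ZNF507 followed with 124 IP reads and 6.81 and 6.89, and ZNF700 with 146 IP reads and 6.79 and 7.10. Input was 0 in 43.0% of the GRB2 windows of these genes, against 37.5% in non-ZNF genes of other chromosomes. It was 0 in 36.9% of the RNPS1 windows, against 17.0%, and in 13.8% of the CPSF6 windows, against 5.93%. Several of the strongest windows of other lists also had 0 input reads, so the size of a fold there rests on the authors' handling of 0, which is not given in the sources used here. Of the 149 genes, 23 (15.4%) stood in 1 list only, against 3.86% of other protein-coding genes. GRB2 was that list for 8 of them, and the matching share for GRB2 in other genes was not computed.

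**Figure D4:**
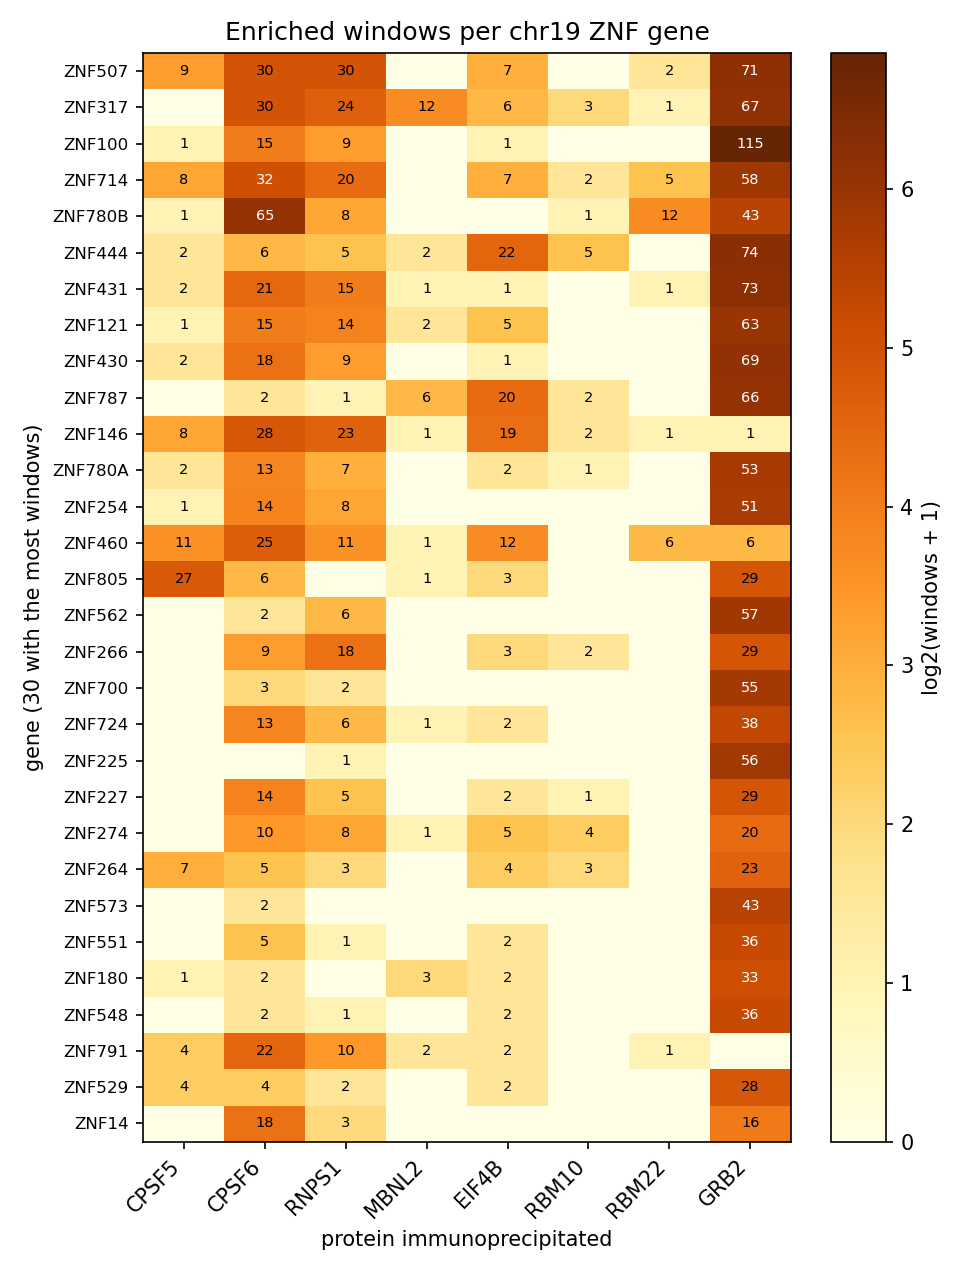
Windows per list (columns, number printed in each cell, color on the log2(windows + 1) scale) for the 30 chromosome 19 ZNF genes with the most windows (rows, most at the top). GRB2 fills the right column for most genes, for example 115 windows in ZNF100, while ZNF780B has 65 CPSF6 windows and ZNF805 27 CPSF5 windows.

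Of 16 genes listed because their roles have been described, 13 had a window, and ZNF91, ZNF93 and ZNF611 had none in these lists. ZNF91 and ZNF93 are known to repress retrotransposons in primates. ZNF473, which acts with the U7 particle in forming the 3' end of histone messenger RNA, had 19 CPSF6 windows, 16 of them coding, and 4 each for EIF4B, MBNL2 and RNPS1. ZNF274, which recruits a histone methyltransferase to zinc finger genes, had 20 GRB2, 10 CPSF6 and 8 RNPS1 windows, and its 3 RBM10 windows in the other-exon class reached 4.61.

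ZNF417 and ZNF587, close paralogs that repress endogenous retroviruses, had 14 and 20 CPSF6 windows and 7 and 6 RNPS1 windows. ZNF649 had 11 of each. ZNF765 had 11 CPSF6 and 2 RNPS1 windows. ZNF224, a repressor of the aldolase A gene, had 14 CPSF6 and 11 RNPS1 windows and no EIF4B window. ZNF675 had 19 GRB2, 11 CPSF6 and 5 RNPS1 windows, and ZNF536, which is active in the brain, had 12 GRB2 windows, 8 each for CPSF6 and EIF4B, and 1 for RNPS1. Few windows were found in ZNF382 (4 in 2 lists), in ZNF350 (4, all GRB2) and in ZNF568 (3), whose mouse counterpart represses a placental transcript of Igf2.

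Along the chromosome, the listed genes were split where the lowest window positions of neighbouring genes lay more than 1 Mb apart. This gave 17 groups, and ZNF536, ZNF507 and ZNF473 each stood alone in a group. The group from 55.6 to 58.5 Mb was the largest, with 43 listed genes of 58 in RefSeq and 952 windows (24.6%). It held 52 of the 114 CPSF5 windows, 27 of them in ZNF805, and 154 of the 302 EIF4B windows and 58 of the 123 MBNL2 windows. The coding windows of its genes had a median GC content of 49.6%.

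The group from 20.8 to 21.8 Mb had 8 listed genes and 542 windows, of which 347 were GRB2 windows and 10 EIF4B windows, and its coding GC median was 38.3%. Between 51.6 and 53.5 Mb, 21 genes of 39 in RefSeq were listed, with 221 windows. That group had 105 CPSF6, 60 RNPS1, 48 GRB2 and 5 EIF4B windows and no MBNL2 window. From 9.1 to 9.7 Mb, 7 genes held 411 windows, 220 of them GRB2 windows, and each of the 7 had a CPSF6 and an RNPS1 window. The number of windows in a group counts how many genes lie there and how deeply each is covered, and these were not separated.

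**Figure D5:**
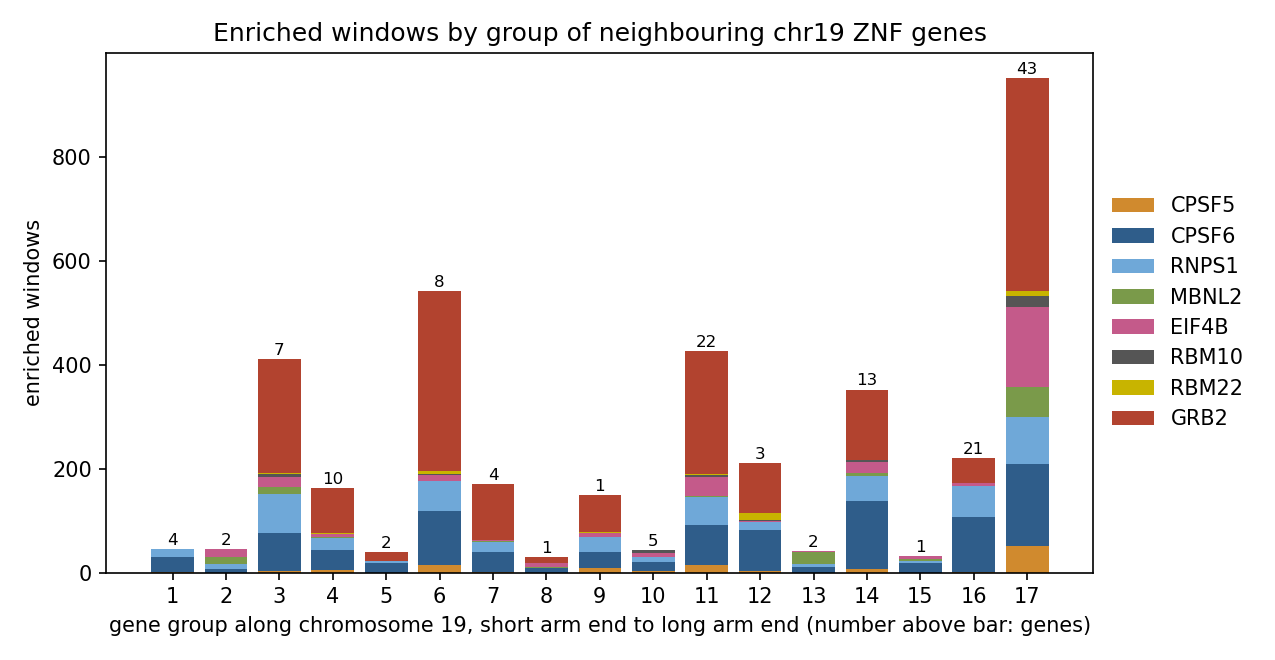
Enriched windows (y axis), stacked by protein, in the 17 groups of chromosome 19 ZNF genes (x axis, in order along the chromosome), with the number of genes above each bar. Group 17, with 43 genes, has 952 windows, and group 6, with 8 genes, has 542, most of them GRB2 windows.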

How the data were processed

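The authors deposited 1 table per protein, listing windows enriched in IP over input in both replicates; per the submitters' processing notes the genome build is hg38, while the sources used here do not give the aligner, window caller, annotation or handling of repeated matches. Per the file headers, the read counts of IP and input are sums over the 2 replicates. The log2 enrichment is the authors' log2 odds ratio, deposited as the lowest and highest replicate, with no model or baseline given. The largest q-value (p-value adjusted by the authors) in the deposited tables was 0.2 at most. The GC fraction per window and the window positions were also taken as deposited by the authors. Library totals are not in these tables, so depth per sample is unknown.

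Rows were kept where the chromosome was 19, the gene name was ZNF, digits and at most 1 letter, and the gene type was protein coding. Windows were counted by list, gene and feature type, and coordinates are given counting from 1. Feature types were grouped as coding, 3' UTR, 5' UTR, intron (splice-site flanks included) and other. Shares carry exact Clopper-Pearson 95% intervals. No test between genes was made, because no replicate is identified in the deposited values and windows of 1 gene are not replicates. The background is the percent of the 10122 protein-coding genes with any window that stand in a list. GRB2 density used RefSeq gene lengths, and distances to a gene end used RefSeq ends. Promoter sequences are those of RefSeq (GRCh38.p14), and the GC content of all 4531 deposited windows lying inside them equalled that of the sequence within 0.001.

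Named genes are, for each list, the 5 genes with most windows and the 3 with the strongest window of at least 20 IP reads, the 8 genes in most lists, and 16 genes with described roles. Other genes named were chosen after their values were seen. The members and lists were chosen with earlier results of these data known. A count of zinc fingers per protein, which had been planned, was not run, because no protein sequences were given. Alternatives tried were a largest q-value of 0.05, at least 20 IP reads, a lower-replicate log2 enrichment of at least 2, touching windows counted once, a wider set of gene names, equal weight per gene, leaving out the gene with most windows, windows that touch counted as shared, and a gap of 0.5 Mb between gene groups. The counting code was tested on simulated data. Python 3.11.15, numpy 2.4.6, pandas 2.3.3, scipy 1.17.1 and matplotlib 3.10.9 were used.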

Additional observations from a re-analysis of the deposited data

How the results depend on the processing

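No paired analysis was possible because read counts are deposited only as sums over the 2 replicates and log2 enrichments as the lower and the higher value with no replicate named, and leaving out a replicate was not possible for the same reason. Of 175 shares and counts recomputed under the alternatives, 58 moved beyond their limit, which for a share is its counting interval, and 117 did not. LGALS3 stayed at 0 in the 11 values computed for it. The 40 median log2 enrichments have no such limit. At a largest q-value of 0.05 they were 3.56 for CPSF5, 3.19 for CPSF6, 3.14 for EIF4B, 4.17 for GRB2, 2.67 for MBNL2, 4.08 for RBM10, 2.71 for RBM22 and 3.38 for RNPS1. Values below are percents for the chromosome 19 ZNF genes, and the cause of a shift was not tested beyond what each alternative leaves out. At a largest q-value of 0.05, the share of genes with a window was 52.3 for CPSF6, 34.9 for EIF4B, 34.9 for GRB2, 14.1 for MBNL2, 6.04 for RBM10, 3.36 for RBM22 and 47.7 for RNPS1. With at least 20 IP reads it was 14.8 for CPSF5, 51.0 for CPSF6, 46.3 for EIF4B, 38.9 for GRB2, 13.4 for MBNL2 and 40.3 for RNPS1. In every list with a window these stayed below the share of all protein-coding genes under the same filter, with GRB2 at 34.9 against 38.2 for a q-value of 0.05 and 38.9 against 42.7 for 20 reads.

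The share of a list's protein-coding windows that lay in these genes was 0.302 for CPSF5, 0.639 for CPSF6, 0.459 for EIF4B, 0.637 for GRB2, 0.170 for RBM10, 0.425 for RBM22 and 0.355 for RNPS1 in the full lists. At the q-value of 0.05 it was 0.580 for CPSF6, 0.382 for EIF4B, 0.690 for GRB2, 0.118 for RBM10 and 0.277 for RNPS1. With 20 IP reads it was 0.472 for CPSF6 and 0.183 for RNPS1, and with a log2 enrichment of 2 it was 0.726 for CPSF6. With touching windows counted once it was 0.543 for CPSF6 and 0.603 for GRB2. Without the gene with most windows it was 0.230 for CPSF5 (ZNF805 left out), 0.595 for CPSF6 and 0.271 for RBM22 (ZNF780B left out) and 0.596 for GRB2 (ZNF100 left out).

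The 3' UTR share of CPSF5 was 96.2 at a q-value of 0.05, 95.2 with 20 reads and 82.3 with touching windows counted once. The coding share of CPSF6 was 54.9 with touching windows counted once and 66.3 with equal weight per gene. The 5' UTR share of EIF4B was 62.8 with 20 reads and 79.0 with equal weight per gene. The intron share of GRB2 was 93.1 with touching windows counted once and 93.0 with equal weight. The coding share of MBNL2 was 77.8 with 20 reads, 53.0 with touching windows counted once and 44.9 with equal weight, so it rests on the few genes with many windows. The intron share of RBM10 was 50.0 at a q-value of 0.05. The coding share of RBM22 was 20 at a log2 enrichment of 2, and 57.1 without ZNF780B.

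Of CPSF6 windows, the share also listed for RNPS1 was 22.8 with 20 reads, 28.9 with a log2 enrichment of 2 and 48.2 where touching windows count as shared. Of RNPS1 windows, the share also listed for CPSF6 was 50.0 at a q-value of 0.05, 65.6 with 20 reads, 50.6 at a log2 enrichment of 2, 52.8 with touching windows counted once and 70.0 where touching counts as shared. RBM22 windows with 20 reads were also CPSF6 windows in 100% of cases. EIF4B windows were also MBNL2 windows in 5.68, 6.58 and 21.5 under the q-value, the log2 enrichment and the touching rule. MBNL2 windows were also EIF4B windows in 15.4, 39.5, 17.8 and 42.3 under the q-value, 20 reads, the log2 enrichment and the touching rule. With a gap of 0.5 Mb the genes formed 18 groups in place of 17, and the wider set of gene names moved none of the 39 values computed with it beyond its limit, medians judged by the replicate gap of a window.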

Other observations

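Windows whose gene name joins a ZNF gene to a neighbour were left out of the counts above. Of the 97 chromosome 19 ZNF genes with no window under their own name, 5 appeared in such joined names. Under a name joining ZNF587 to an overlapping gene there were 5 CPSF6 and 3 RNPS1 windows, and under a name joining ZNF585B to another gene 6 GRB2 windows of which the strongest had a lower-replicate log2 enrichment of 5.09. Zinc finger genes of chromosome 19 under other symbols added 24 windows in 4 genes, ZFP14, ZFP30, ZSCAN18 and ZSCAN22. ZFP30 held 8 CPSF6 windows and ZFP14 a CPSF5 window at 4.66 in the lower replicate.

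The transcripts of chromosome 19 ZNF genes whose start opened an EIF4B window began with A or G in 89.5% of 38 cases, against 78.1% of all RefSeq starts in the table. That difference was not tested, and starts of other genes that opened an EIF4B window were not counted for it. The median GC content of the first 20 bases was 65% for the chromosome 19 ZNF starts, whether or not a window stood there, against 60% for all starts.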
